A study of Saccharomyces cerevisiae S288C with 18 samples.

Results

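The signal recognition particle (SRP) was followed through affinity purifications of 4 yeast proteins by the RNA that forms its core, SCR1, and by the mRNAs of its 6 proteins: SRP14 (YDL092W), SRP21 (YKL122C), SRP54 (YPR088C), SRP68 (YPL243W), SRP72 (YPL210C) and SEC65 (YML105C). These 7 genes were taken by name. They hold 19 of the 23521 rows counted in the series, namely the SCR1 row and, for each protein gene, a row for the open reading frame (ORF) and a row for either untranslated region (UTR). Of the 19 rows, 12 passed a filter of at least 10 reads in at least 3 libraries, against 12582 of all rows. They were SCR1, the 6 ORF rows and 5 of the 6 3′ UTR rows.

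The 18 libraries form 6 groups of 3 replicates. The tagged strains, 4 in all, carried a TAP tag, a protein A-based handle retained on IgG beads, at the chromosomal copy of UPF1 (listed by its other name, NAM7), PAB1, RPL16A or LSM1, each marked with HIS3MX6 in the background BY4741. Upf1 is the helicase of nonsense-mediated decay (NMD), Pab1 binds poly(A) tails, Rpl16a belongs to the large ribosomal subunit and stands for ribosome-bound RNA, and Lsm1 is part of the Lsm1-7/Pat1 ring on short-tailed RNA. The group named Control is the same purification from untagged BY4741, and Input is total RNA set aside before purification. All cultures grew exponentially in rich glucose medium at 30 °C to an optical density of 0.6, in volumes of 4 L for purification. Which strain gave each Input library could not be taken from the sources used here. Library preparation started at fragmentation after rRNA removal, with no step that selects poly(A), so RNA without a tail could be counted. Purified and total RNA were both read as shares of a library, so less of an RNA and more of all others cannot be told apart.

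SRP is a ribonucleoprotein that meets a signal sequence or membrane segment as it leaves the ribosome, slows elongation, and brings the ribosome to its receptor at the endoplasmic reticulum (ER). SCR1 is made by RNA polymerase III, carries no poly(A) tail, and folds into an Alu domain that reaches the elongation-factor site and an S domain that holds the signal sequence. Srp14 binds the Alu domain, and Srp21 is the yeast counterpart of mammalian SRP9. Srp68 and Srp72 form a pair on the S domain, Sec65 is the yeast SRP19, and Srp54 is the GTPase that grips the signal sequence. Yeast cells survive without SRP but grow slowly, since other routes into the ER exist.

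SCR1 lies on the plus strand of chromosome V, at chrV:441987-442508 of the R64 reference, over 522 bases with 55.0% G+C. The first 120 bases are shown for a short motif near the 5′ end, printed in capitals (TGTNA or TGTNG, N being any base), which in mammalian SRP RNA is contacted by the SRP9/SRP14 pair. The last 60 bases are shown for the run of T in capitals at which polymerase III stops.
SCR1 bases 1 to 120: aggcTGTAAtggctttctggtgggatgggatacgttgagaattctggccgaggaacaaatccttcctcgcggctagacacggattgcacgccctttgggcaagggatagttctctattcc
SCR1 bases 463 to 522: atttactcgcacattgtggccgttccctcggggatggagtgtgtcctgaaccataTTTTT
Searched on the sense strand, the motif starts at base 5 of SCR1 and occurs once in its first 30 bases. The same search finds it in the first 30 bases of 22.2% of 6477 RefSeq genes, so the match is a description and no more. The T run covers bases 518 to 522. No annotated gene overlaps SCR1 or any of the 6 protein genes, the nearest being YER137C, 168 bases from SCR1 on the opposite strand. None of the 6 ORFs is split by an intron. They run from 441 bases in SRP14 (chromosome IV) and 504 bases in SRP21 (chromosome XI) through 822 bases in SEC65 (chromosome XIII) to 1626 bases in SRP54, 1800 bases in SRP68 and 1923 bases in SRP72 (all 3 on chromosome XVI). SRP54 has the highest G+C content of the 6 ORFs, 41.9%, against 35.6% to 39.3% in the others.

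Library totals ran from 2790148 to 16381719 counted reads. Replicates differed beyond counting error in every group, so the spread between libraries sets the precision. Genes that BY4741 lacks, LEU2 and MET17, had 0 reads in all 18 libraries, the MATa gene STE2 was read in all groups, and URA3 had 1 read in Input and 1 in Rpl16a-TAP. Libraries with replicate number 3 stood apart in Input, Upf1-TAP, Pab1-TAP and Rpl16a-TAP. Their share of rRNA was 41.3%, 7.29%, 13.4% and 67.7%, against 0.0691% to 0.777% in replicates 1 and 2 of these groups. In Control rRNA took 3.46%, 9.25% and 10.8%, and in Lsm1-TAP 1.11%, 8.35% and 5.70%. Either of 2 rRNA removal reagents was used, and the sources used here do not assign them to libraries.

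SCR1 was the most abundant row other than rRNA in total RNA and took a smaller share of every purified library. In the 3 Input libraries it took 6.43%, 8.29% and 10.3% of counted reads, and counting error is small beside these differences (95% Wilson interval 6.41% to 6.45% in replicate 1, counting error only). In Control it took 2.26%, 2.08% and 2.55%. Lsm1-TAP had shares of 1.04%, 0.996% and 1.08%, the tightest of the tagged groups, and Rpl16a-TAP 0.445%, 0.369% and 1.08%. Upf1-TAP had 0.227%, 0.252% and 4.16%, and Pab1-TAP 0.164%, 0.132% and 1.29%. Every purified library lay below every Input library. Every tagged library but Upf1-TAP replicate 3 lay below every Control library. The replicate 3 share was 17.4 times the mean of replicates 1 and 2 in Upf1-TAP, 8.73 times in Pab1-TAP and 2.64 times in Rpl16a-TAP, but 1.06 times in Lsm1-TAP and 1.17 times in Control.

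**Figure D1:**
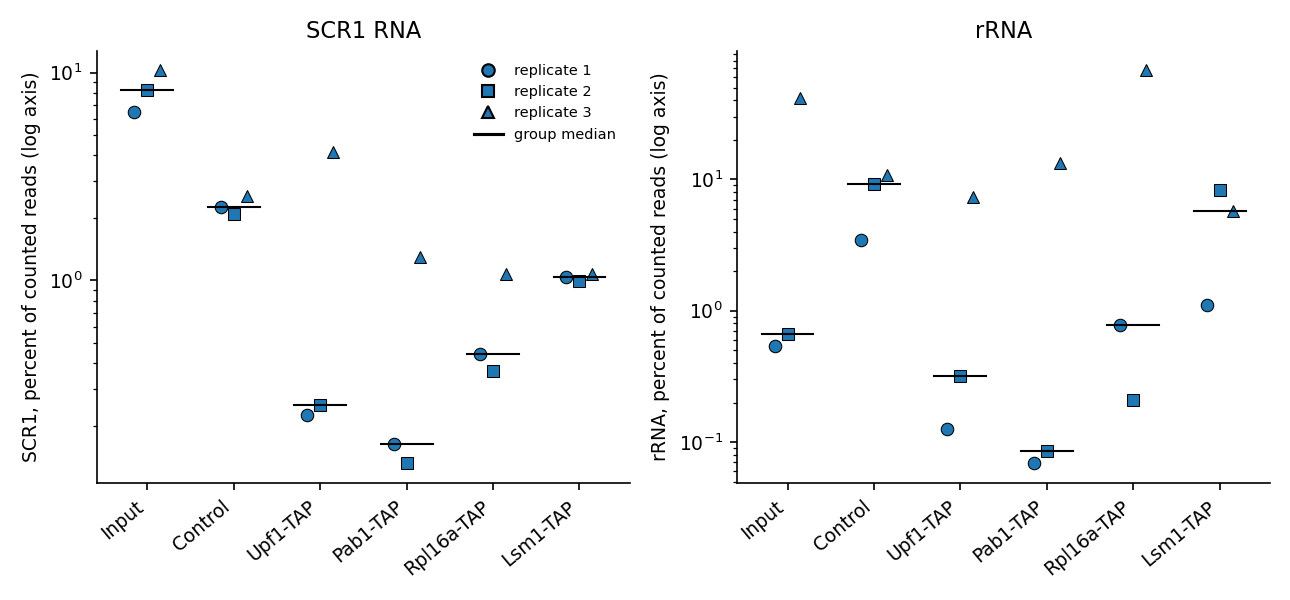
Percent of counted reads on SCR1 (left) and on rRNA (right) in each of the 18 libraries, on log axes, with a marker for each replicate number and a line at the group median. All Input libraries sit above all others for SCR1, and replicate 3 of Upf1-TAP, Pab1-TAP and Rpl16a-TAP sits above the other 2 replicates in both panels.

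The comparisons with Input asked how far SCR1 was recovered in each purification, Control included, relative to other RNA. They do not separate what a bait holds from what the beads hold, which is left to the comparisons with Control. Counts were scaled by TMM, which sets the typical row of each library level, and tested over all 12582 rows with edgeR's quasi-likelihood test. A row was called when its Benjamini-Hochberg adjusted p was under 0.05. SCR1 was called lower in Pab1-TAP with a log2 change of -5.52 (SE 1.43, adjusted p = 0.014), in Lsm1-TAP at -4.68 (SE 1.38, adjusted p = 0.0209) and in Upf1-TAP at -4.41 (SE 1.36, adjusted p = 0.0161). The values in Rpl16a-TAP, -3.50 (SE 1.30, adjusted p = 0.0916), and in Control, -3.16 (SE 1.28, adjusted p = 0.0993), did not pass. Only 10 of the 12582 rows had a lower value than SCR1 in Pab1-TAP against Input. That number was 44 in Lsm1-TAP, 61 in Upf1-TAP, 81 in Rpl16a-TAP and 128 in Control.

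The replicate 3 libraries set the width of these errors. With replicate 3 left out of every group, SCR1 was called below Input in all 5 purifications. The log2 change was -7.38 in Pab1-TAP (SE 0.69, adjusted p = 2.4e-05), -6.96 in Upf1-TAP (SE 0.68, adjusted p = 1.0e-05), -5.03 in Rpl16a-TAP (SE 0.62, adjusted p = 0.000255), -4.26 in Lsm1-TAP (SE 0.60, adjusted p = 0.000186) and -2.90 in Control (SE 0.56, adjusted p = 0.00227). With the replicate number as a block, edgeR called the decrease in Rpl16a-TAP, at -4.46 (adjusted p = 0.000947), and that in Control, at -2.98 (adjusted p = 0.00971). The Rpl16a-TAP decrease was also called without Rpl16a-TAP replicate 3 alone, at -5.43 (adjusted p = 0.0348). Conversely, without Upf1-TAP replicate 1 or 2 the value there was -3.85 or -3.89, without Pab1-TAP replicate 2 it was -5.05, and none of these passed. None of these 3 purifications kept the call without replicate 1 or without replicate 2 of every group, at values from -3.92 to -5.37. In Lsm1-TAP leaving out any of its 3 libraries also lost the call, with values from -4.57 to -4.75. How much of the replicate 3 pattern goes with rRNA carried over in those libraries was not tested.

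Against Control, which measures what the beads retain without a bait, the question is what the bait adds or takes away. SCR1 passed in none of the 4 tagged purifications. The values were -2.36 (SE 1.24, adjusted p = 0.203) in Pab1-TAP, -1.52 (SE 1.21, adjusted p = 0.786) in Lsm1-TAP, -1.25 (SE 1.20, adjusted p = 0.437) in Upf1-TAP and -0.34 (SE 1.18, adjusted p = 0.933) in Rpl16a-TAP. Without replicate 3 of every group, edgeR called SCR1 lower than Control in Pab1-TAP at -4.48 (adjusted p = 0.00173) and in Upf1-TAP at -4.06 (adjusted p = 0.000204). In Rpl16a-TAP it gave -2.12 (adjusted p = 0.0567) and in Lsm1-TAP -1.36 (adjusted p = 0.226) there, neither called. Leaving out Upf1-TAP replicate 3 alone moved the Upf1-TAP value to -4.24, which was called. In Rpl16a-TAP the sign turned, to 0.11 and 0.12, without its replicate 1 or 2, and to 0.039 and 0.059 without replicate 1 or 2 of every group. Fitted with the replicate number as a block, edgeR called SCR1 below Control in Pab1-TAP (-3.52, adjusted p = 0.00433) and Upf1-TAP (-2.67, adjusted p = 0.0145). It did not in Rpl16a-TAP (-1.38, adjusted p = 0.329) or Lsm1-TAP (-1.43, adjusted p = 0.362). Not every Control library goes with the Input library of its number, so these block values rest in part on shared numbers alone.

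Ordered by mean log2 CPM (the count after TMM scaling, per unit of library size), SCR1 stood at 17.50 in Input, 14.42 in Control, 13.24 in Rpl16a-TAP, 12.90 in Lsm1-TAP, 11.67 in Upf1-TAP and 11.04 in Pab1-TAP. The Input libraries, at 123115 to 290691 CPM, lay wholly above the Control libraries, at 18596 to 26633 CPM, though this difference did not pass the edgeR test. The other neighbours in this order overlapped in their ranges, and none of the 6 comparisons between tagged purifications passed, with edgeR adjusted p from 0.292 to 0.893. The largest of these 6 differences, Pab1-TAP against Rpl16a-TAP, was -2.02 (SE 1.23, adjusted p = 0.292). With the replicate number as a block it was -2.17 (adjusted p = 0.0392), and Pab1-TAP against Lsm1-TAP was -2.24 (adjusted p = 0.0312), both called by edgeR. Without replicate 3, SCR1 was called lower in either of Upf1-TAP and Pab1-TAP than in either of Rpl16a-TAP and Lsm1-TAP, with log2 differences from -3.12 to -1.93, while Upf1-TAP and Pab1-TAP differed by 0.42 (SE 0.52, adjusted p = 0.566).

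A ratio within each library needs no scaling between libraries. SCR1 reads were divided by the reads in the 6 SRP ORF rows of the same library. Input held 356, 346 and 468 SCR1 reads per SRP ORF read and Control 44.1, 28.0 and 37.2. Lsm1-TAP held 20.8, 19.8 and 13.8. Upf1-TAP held 5.23, 5.59 and 68.6, Rpl16a-TAP 6.40, 5.00 and 39.4, and Pab1-TAP 2.23, 1.82 and 18.3. All 15 purified libraries thus lay below all 3 Input libraries, and the ranges of Pab1-TAP and Lsm1-TAP lay wholly below that of Control, while those of Upf1-TAP and Rpl16a-TAP reached into or past it through replicate 3.

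**Figure D2:**
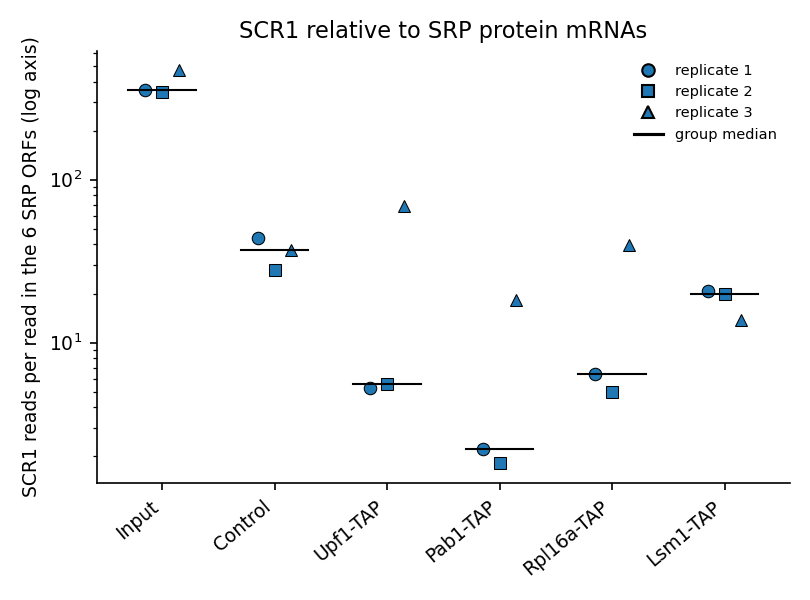
SCR1 reads per read in the 6 SRP ORF rows for each library, on a log axis, with a marker for each replicate number and a line at the group median. Input lies at 346 to 468, Control at 28.0 to 44.1 and Pab1-TAP at 1.82 to 18.3.

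The mean log2 ratio was 8.59 ± 0.24 (SD, n = 3) in Input, 5.16 ± 0.33 in Control, 4.16 ± 0.32 in Lsm1-TAP, 3.66 ± 2.12 in Upf1-TAP, 3.43 ± 1.63 in Rpl16a-TAP and 2.07 ± 1.84 in Pab1-TAP. Relative to Input the ratio was lower by 91.9-fold in Pab1-TAP, 35.7-fold in Rpl16a-TAP, 30.6-fold in Upf1-TAP, 21.7-fold in Lsm1-TAP and 10.8-fold in Control. Each of these 5 differences gave a two-sided exact permutation p of 0.10, the smallest that 3 against 3 libraries can reach, and 0.129 after adjustment over the 9 ratio comparisons. Relative to Control it was 8.52-fold lower in Pab1-TAP (exact permutation p = 0.10) and 2.01-fold lower in Lsm1-TAP (exact permutation p = 0.10). For Upf1-TAP, 2.84-fold lower, and Rpl16a-TAP, 3.31-fold lower, the groups overlapped (exact permutation p = 0.40 and 0.30). No ratio comparison can therefore pass 0.05. Leaving out 1 library at a time gave log2 differences from Input of -6.16 to -4.30 in Upf1-TAP, -7.58 to -5.92 in Pab1-TAP and -6.09 to -4.60 in Rpl16a-TAP, and from Control of -2.73 to -0.87, -4.15 to -2.49 and -2.66 to -1.17. The lowest value of each of these 6 ranges was the one without that bait's own replicate 3.

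NME1, the RNA of the endonuclease RNase MRP, had the pattern most like that of SCR1. Over the 18 libraries its log2 CPM had Pearson r = 0.97 with that of SCR1, the highest among 4814 rows with a mean of at least 20 CPM. The next 4 were the intron of a tRNA gene, tI(UAU)L (r = 0.92), the intron row of the mitochondrial gene COX1 (r = 0.91), the 3′ UTR row of HAC1 (r = 0.91) and mitochondrial COX3 (r = 0.91). These are descriptions over libraries that share replicate 3 with its rRNA share. Of the other structural RNAs listed, NME1 was called below Input in Upf1-TAP at -3.96 (SE 1.23), Pab1-TAP at -3.79 (SE 1.22) and Lsm1-TAP at -3.34 (SE 1.19), the purifications in which SCR1 was also called. TLC1, the telomerase RNA, was called lower than Input in Upf1-TAP at -1.52 (SE 0.56) and in no other comparison with Input or Control. Its CPM of the unscaled library overlapped between these 2 groups. The median was 319 CPM (246 to 739) in Upf1-TAP and 320 CPM (206 to 434) in Input. The TLC1 call is therefore a statement relative to the typical row under TMM, and not a smaller share of the library. SNR6, the U6 spliceosomal RNA, was not called in any of the 9 (values from -3.45 in Upf1-TAP to 0.15 in Rpl16a-TAP against Input). The remaining 6 (RPR1, LSR1, SNR14, SNR19 and both SNR7 forms) were listed at 0 reads in all 18 libraries. Whether these zeros reflect the RNA or the way reads were assigned to rows is not known from the sources used here.

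The mRNAs of the SRP proteins were orders of magnitude rarer than SCR1 in Input. Per kilobase of ORF, their mean levels in Input ran from 42.8 ± 21.5 CPM (SD, n = 3) for SRP72 and 58.2 ± 10.0 for SRP68 through 64.3 ± 27.8 for SRP21, 77.7 ± 16.5 for SEC65 and 90.9 ± 23.9 for SRP14 to 105 ± 37.6 for SRP54. SCR1 stood at 377964 ± 163647 CPM per kilobase on the same scale. The 6 ORF rows passed the filter with at least 10 reads in all 18 libraries. Neighbours in this order overlapped in their spread.

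How these mRNAs move depends on what a library is scaled to. Under TMM the median of all rows was between 0.03 and 0.27 on the log2 scale in the 5 comparisons with Input. Scaling by library totals moved that median to 2.33 in Upf1-TAP and 1.92 in Pab1-TAP, to 1.70 in Lsm1-TAP, and to 1.23 in Control and 0.65 in Rpl16a-TAP, and all 6 SRP mRNAs then had values above 0 in each of the 5. The calls below are therefore statements relative to the typical row. Taken relative to the median of all rows, the SRP mRNA values in Upf1-TAP were -1.59 to -0.23 under TMM and -1.52 to -0.26 under totals, and in Pab1-TAP -1.29 to 1.51 and -1.29 to 1.52.

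In Upf1-TAP the mRNAs of SEC65, SRP72, SRP68 and SRP21 were called lower, and those of SRP54 and SRP14 were not called. Against Input 4 of 6 were called lower and 0 higher, beside 15.9% of all rows called lower and 22.2% higher. SEC65 fell by 1.32 on the log2 scale (SE 0.38, adjusted p = 0.011), SRP72 by 1.25 (SE 0.37, adjusted p = 0.0128), SRP21 by 1.05 (SE 0.39, adjusted p = 0.0414) and SRP68 by 0.71 (SE 0.26, adjusted p = 0.0399). Under library totals all 4 values turned positive, 0.81 to 1.43, with SRP68 called higher. Among all 6 SRP mRNAs 3 were called higher and 0 lower on that scale, so the direction of the calls reversed. SRP54 (-0.97, SE 0.54) and SRP14 (0.04, SE 0.47) did not pass. With the replicate number as a block SRP54 was called as well, at -1.14 (adjusted p = 0.00147, edgeR).

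SRP72, whose product pairs with Srp68, gave 25.7, 29.9 and 47.1 CPM in Upf1-TAP, 56.4, 60.5 and 130 in Input and 89.4, 164 and 142 in Control, so that the Upf1-TAP libraries lay below all of both. SRP68 gave 67.2, 60.8 and 64.2 CPM in Upf1-TAP, against 87.1, 104 and 123 in Input and 132, 198 and 158 in Control, again with no overlap. SEC65 gave 22.4, 33.8 and 20.6 CPM in Upf1-TAP, below all 3 Input values (49.0, 75.6 and 67.1). SRP21 gave 10.4, 18.7 and 17.3 CPM there and 16.7, 36.7 and 43.7 in Input, where 1 Input library fell inside the Upf1-TAP range. For these ranges, the share of all rows that lie apart between the same groups was not counted.

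Against Control the same 4 mRNAs were called lower in Upf1-TAP and 0 higher, beside 13.9% of all rows lower and 19.8% higher. The values were -1.94 for SRP72 (SE 0.37, adjusted p = 0.00115), -1.62 for SRP21 (SE 0.39, adjusted p = 0.00477), -1.35 for SRP68 (SE 0.26, adjusted p = 0.00128) and -1.30 for SEC65 (SE 0.38, adjusted p = 0.0142). These 4 stayed negative under library totals (-1.09, -0.76, -0.46 and -0.38), none called. The count against Input was 1 without Input replicate 3, Upf1-TAP replicate 1 or Upf1-TAP replicate 2, 2 without Input replicate 2, and 1 and 0 without replicates 1 and 2 of every group. Against Control it was 0 without replicate 2 of every group. With the replicate 3 libraries dropped throughout, edgeR called SRP72 (-1.02, adjusted p = 0.0147), SEC65 (-1.10, adjusted p = 0.0364) and SRP54 (-1.46, adjusted p = 0.006) lower than Input, while SRP21 (-0.85) and SRP68 (-0.53) did not pass. Against Control it called SRP21, SRP68, SRP72 and SRP54 there, and SEC65 (-0.89) did not pass.

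In Pab1-TAP the mRNAs called against Input were the 2 for the Alu domain proteins. These are also the 2 shortest of the 6 ORFs, at 441 and 504 bases, so domain and length cannot be told apart here. SRP14 was called higher than Input at 1.74 (SE 0.48, adjusted p = 0.0184) and SRP21 at 1.69 (SE 0.39, adjusted p = 0.00757). The count was 2 of 6 higher and 0 lower, beside 9.89% of all rows higher and 7.89% lower. SRP14 gave 76.3, 132 and 197 CPM in Pab1-TAP against 33.5, 52.2 and 34.6 in Input. SRP21 gave 82.7, 131 and 96.3 CPM against 16.7, 36.7 and 43.7, so that neither mRNA overlapped with Input. How many of all rows lie apart in this comparison was not counted. Both mRNAs stayed positive under library totals (3.34 and 3.43) and were called there. The others did not pass, at -0.25 for SRP68, -0.40 for SEC65, -0.59 for SRP72 and -1.05 for SRP54, though with the replicate number as a block SRP54 was called, at -1.11 (adjusted p = 0.00375, edgeR). Without replicate 3 of every group SRP14 lost its call (1.24), SRP21 kept it (1.94, adjusted p = 0.00587) and SRP54 was called lower (-1.27, adjusted p = 0.0242) by edgeR, and the count was 1 of 6 without Pab1-TAP replicate 3 or Input replicate 1 and 0 without replicate 1 or 2 of every group.

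Against Control, 2 of 6 were called lower in Pab1-TAP and 0 higher, beside 8.08% of all rows lower and 8.24% higher. They were SRP72 at -1.29 (SE 0.37, adjusted p = 0.0239) and SRP68 at -0.90 (SE 0.26, adjusted p = 0.0259), which kept their sign under totals without passing. SRP14 (1.24, SE 0.47, adjusted p = 0.0769) and SRP21 (1.12, SE 0.38, adjusted p = 0.0522) did not pass. The count was 0 without Control replicate 2, Control replicate 3 or Pab1-TAP replicate 2, 1 without Pab1-TAP replicate 3, and 0 without replicate 1 or 2 of every group. With the replicate 3 libraries dropped throughout, SRP54 (-1.37), SRP68 (-0.90) and SRP72 (-1.45) were called lower.

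**Figure D3:**
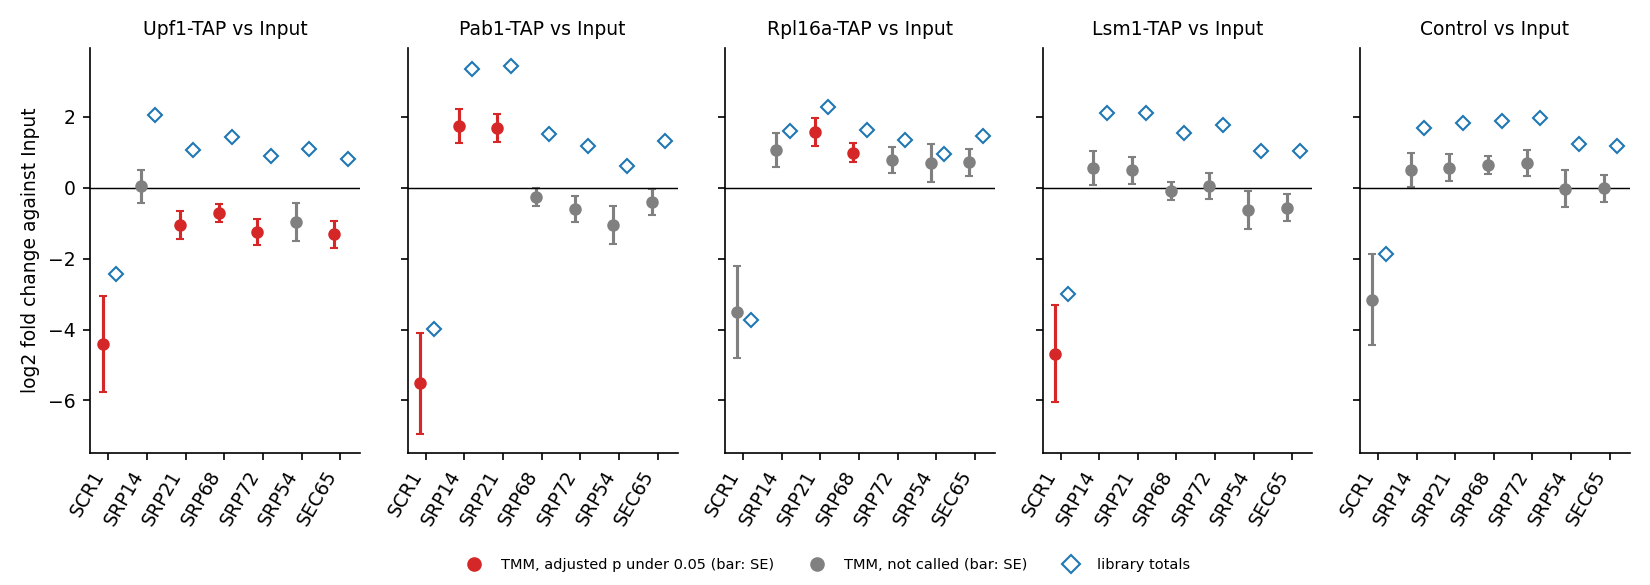
Log2 fold change against Input of SCR1 and the 6 SRP ORF rows in the 5 purifications. Circles are TMM-scaled edgeR values with their SE, red when called and grey when not, and open diamonds are the values under library totals. SCR1 lies below 0 in all panels on either scale, while in Upf1-TAP 5 of the 6 mRNAs lie below 0 under TMM and all 6 lie above 0 under library totals.

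In Rpl16a-TAP, the ribosome-bound fraction, all 6 mRNAs had values above 0 relative to Input and 2 were called higher and 0 lower, beside 5.62% of all rows higher and 4.0% lower. SRP21 rose by 1.57 (SE 0.40, adjusted p = 0.0187) and SRP68 by 0.99 (SE 0.26, adjusted p = 0.0235) on the log2 scale. SRP68 gave 187, 239 and 198 CPM there, above all 3 Input libraries, and SRP21 96.4, 104 and 82.5 CPM, likewise. Such separation was not counted over all rows. The other SRP mRNAs had values between 0.69 for SRP54 and 1.06 for SRP14. With the replicate number as a block, 5 of 6 were called, all but SRP54. The share of all rows called in that fit is not given here, so this count compares settings only. Without Rpl16a-TAP replicate 1 or 2, Input replicate 1 or 2, or replicate 1 or 2 of every group, 0 of 6 were. Against Control 0 of 6 were called, at 0.08 for SRP72 to 0.99 for SRP21, beside 0.0556% of all rows higher and 0.246% lower.

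In Lsm1-TAP 0 of 6 passed against Input (-0.62 for SRP54 to 0.56 for SRP14), beside 13.1% of all rows called higher and 9.77% lower. Against Control 0 of 6 passed as well, beside 0.0% of all rows higher and 0.0% lower. No row was called there by edgeR, though 1084 rows had an unadjusted p below 0.05 and DESeq2 found 149 higher with 15 lower. The paper names Lsm1-TAP as the exception among baits whose profiles differed from the untagged control, and focuses on the others. Control itself had 0 of 6 called against Input (-0.02 for SRP54 to 0.70 for SRP72), beside 9.21% of all rows higher and 6.96% lower, and 1 without Input replicate 3.

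Between tagged purifications, SRP21 separated the baits most. It was lower in Upf1-TAP than in Pab1-TAP by 2.74 on the log2 scale (SE 0.40, adjusted p = 0.000455) and than in Rpl16a-TAP by 2.61 (SE 0.40, adjusted p = 0.000158). Its 3 Upf1-TAP libraries, 10.4 to 18.7 CPM, lay below every library of the other 3 tagged groups (24.5 to 131 CPM), a separation not counted over all rows. SRP14 was lower in Upf1-TAP than in Pab1-TAP by 1.70 (SE 0.47, adjusted p = 0.0154).

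Upf1-TAP against Pab1-TAP had 2 of 6 lower and 0 higher (SRP14 and SRP21), beside 10.5% of all rows lower and 12.9% higher. Upf1-TAP against Rpl16a-TAP had 5 of 6 lower, all but SRP14, and 0 higher, beside 17.5% and 24.0% of all rows. Upf1-TAP against Lsm1-TAP had 2 of 6 lower (SRP21 and SRP72) and 0 higher, beside 6.24% and 10.6%. Pab1-TAP against Rpl16a-TAP had 3 of 6 lower (SRP54, SRP68 and SRP72) and 0 higher, beside 6.34% and 7.89%. Pab1-TAP against Lsm1-TAP had 1 of 6 higher (SRP21) and 0 lower, beside 10.1% of all rows in either direction. Rpl16a-TAP against Lsm1-TAP had 2 of 6 higher (SRP68 and SEC65) and 0 lower, beside 2.86% higher and 4.97% lower.

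These pairwise counts changed with the processing. The shares of all rows called under totals and under the block are not given beside them. Under library totals 1 of 6 was lower in Upf1-TAP than Pab1-TAP (SRP21) and 1 higher in Pab1-TAP than Rpl16a-TAP, and the other 4 comparisons had 0. With the replicate number as a block, edgeR called 4 lower in Upf1-TAP than Pab1-TAP (SRP14, SRP21, SRP72 and SEC65), 6 lower than Rpl16a-TAP and 3 lower than Lsm1-TAP (SRP21, SRP72 and SEC65). It called 4 lower in Pab1-TAP than Rpl16a-TAP (SRP54, SRP68, SRP72 and SEC65), 2 higher (SRP14 and SRP21) and 1 lower (SRP72) in Pab1-TAP than Lsm1-TAP, and 5 higher in Rpl16a-TAP than Lsm1-TAP, all but SRP14. Without replicate 2 of every group, edgeR called 0 of all 12582 rows in 5 of the 6 comparisons, with 1567 to 2434 rows at an unadjusted p under 0.05, and in Upf1-TAP against Rpl16a-TAP it called 359 higher and 145 lower.

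**Figure D4:**
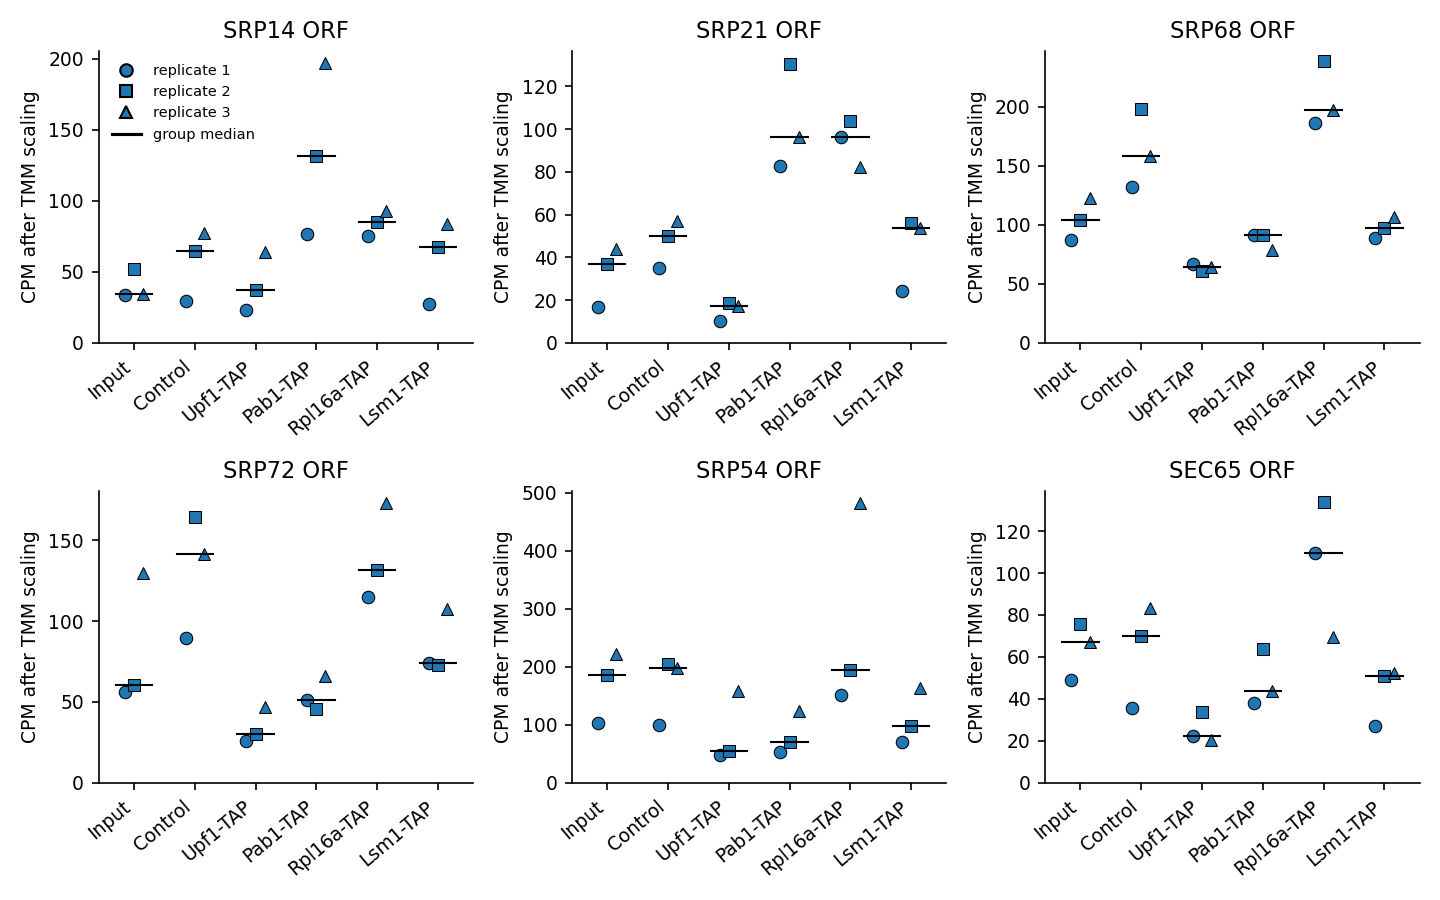
CPM after TMM scaling of the 6 SRP ORF rows in each library, with a marker for each replicate number and a line at the group median, on axes that start at 0. SRP21 in Upf1-TAP sits at 10.4 to 18.7 CPM and in Pab1-TAP at 82.7 to 131.

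The share of each mRNA among the reads of the 6 SRP ORFs in a library is free of scaling. In Input SRP14 took 9.68%, 10.1% and 5.56% and SRP21 4.84%, 7.13% and 7.04%. In Pab1-TAP SRP14 took 19.5%, 24.7% and 32.5% and SRP21 21.1%, 24.5% and 15.9%. Both mRNAs had a higher share in every Pab1-TAP library than in any of the other 15. SRP72 took 13.1%, 12.8% and 12.7% in Upf1-TAP, inside the Input values of 16.3%, 11.8% and 20.9%, and 19.8% to 21.8% in Control. SRP54, the most abundant of the 6 in Input at 29.8% to 36.1%, took 13.4%, 13.1% and 20.4% in Pab1-TAP, below every Input library.

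The SRP54 share was high in replicate 3 of Rpl16a-TAP and Upf1-TAP. It took 43.9% in Rpl16a-TAP replicate 3 against 20.7% and 21.9% in replicates 1 and 2, and 42.7% in Upf1-TAP replicate 3 against 24.0% and 23.1%, while in Input it took 29.8%, 36.1% and 35.8% and in Lsm1-TAP 22.6%, 22.1% and 28.8%. Over the 18 libraries its log2 CPM had r = 0.69 with SCR1, the highest of the 6, while SRP14 had -0.15 and SRP21 -0.13. SRP14 and SRP21 had r = 0.81 with each other and SRP68 and SRP72 r = 0.89. These correlations are descriptions over libraries that share groups and replicate numbers.

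**Figure D5:**
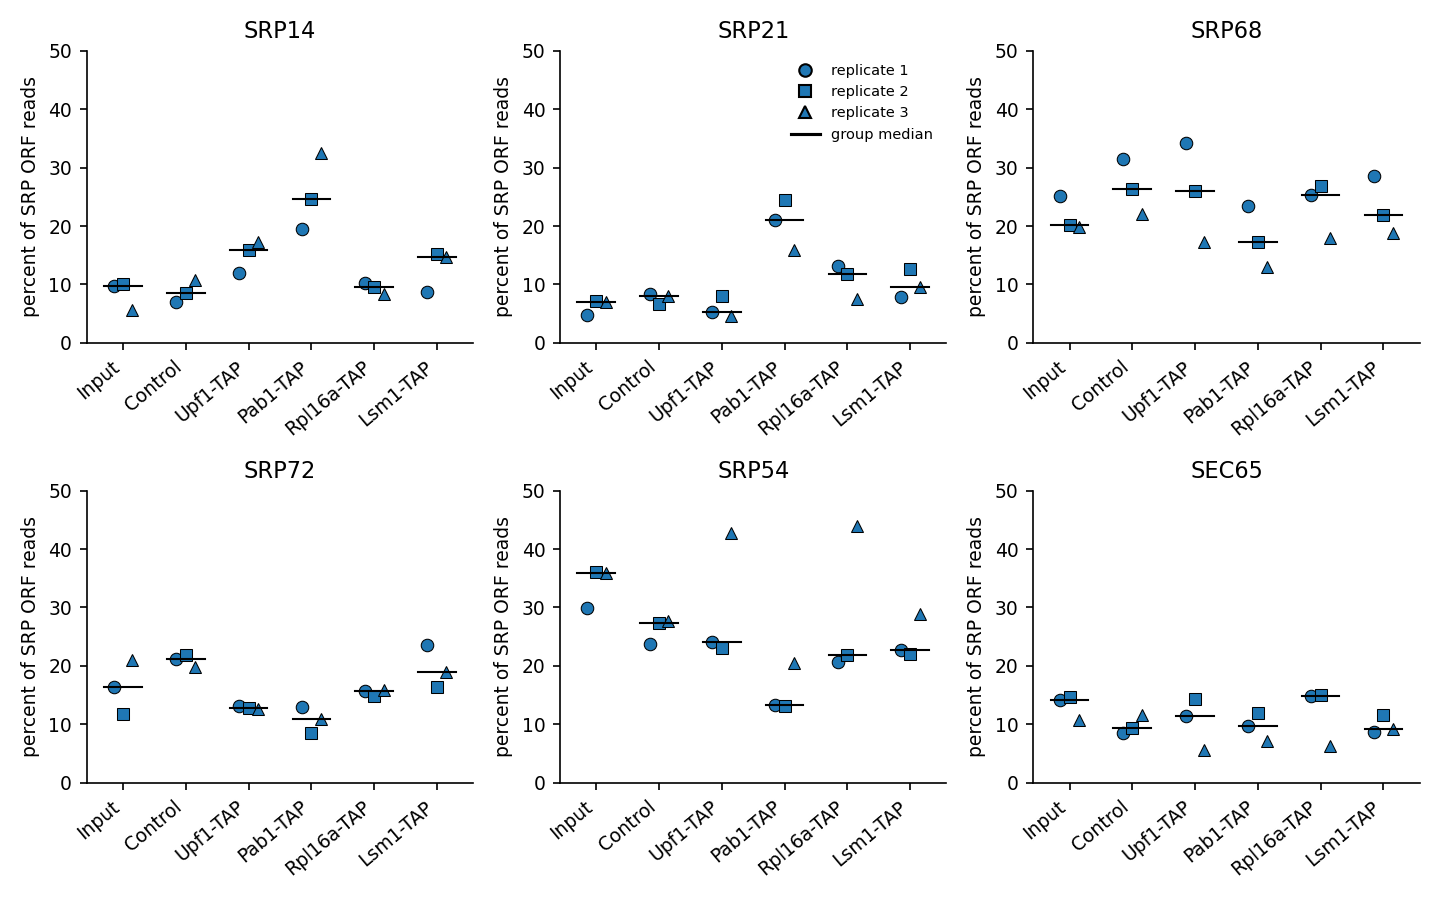
Percent of the reads in the 6 SRP ORF rows that fell on each mRNA, for each library, with a line at the group median. In Pab1-TAP the SRP14 and SRP21 shares lie at 19.5% to 32.5% and 15.9% to 24.5%, above those of the other groups.

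The 3′ UTR row of SRP14 gave a further difference between purified and total RNA. SRP14 had the most reads there, 23.5 per 100 ORF reads over all libraries, and SRP21 3.31, SRP72 2.75, SRP68 2.30 and SEC65 1.01. The width of the UTR rows is not given in the files, so these figures compare libraries and not genes. For SRP14 the 3′ UTR reads per 100 ORF reads were 10.0 to 12.04 in Input, and 18.3 to 39.7 in the 15 purified libraries. For SRP21 they were 0 to 0.837 in Input and 1.72 to 6.12 in purified libraries, and for SRP72 0 to 0.781 and 1.47 to 5.28. All 15 purified libraries thus exceeded all 3 Input libraries for these 3 genes. The share of all genes that separate in this way was not counted. Over all 3′ UTR rows the median against Input was above 0 in every purification, at 0.25 to 0.73 on the log2 scale. The separation is therefore not read as particular to SRP genes. The Input values for SRP21 and SRP72 rest on 2 and 4 reads in all. For SRP68, 1.65 to 2.22 in Input fell inside the purified range of 1.24 to 7.94.

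In the edgeR test the SRP14 3′ UTR row, with 13, 34 and 4 reads in Input and 20 to 643 in the purified libraries, was called higher than Input in all 5 purifications, at 2.73 in Pab1-TAP (SE 0.39, adjusted p = 0.00047), 2.29 in Rpl16a-TAP, 1.68 in Control, 1.55 in Lsm1-TAP and 1.19 in Upf1-TAP. The SRP72 and SRP21 rows, with at most 3 reads in any Input library, passed the filter only through purified libraries, so their values against Input are not read as a test. The median over all 3937 3′ UTR rows was 0.73 in Pab1-TAP, 0.54 in Upf1-TAP, 0.35 in Lsm1-TAP, 0.28 in Rpl16a-TAP and 0.25 in Control, against 0.01 to 0.17 for 5680 ORF rows. Of all 3′ UTR rows 13.7% were called higher and 2.13% lower in Pab1-TAP, 23.9% and 9.27% in Upf1-TAP, 11.9% and 6.60% in Lsm1-TAP, 3.71% and 1.19% in Rpl16a-TAP and 5.89% and 4.22% in Control. Against Control the SRP14 row was called higher in Pab1-TAP (1.05), beside 7.62% of all 3′ UTR rows higher and 0.914% lower. In Upf1-TAP the SRP68 (-1.86) and SRP21 (-1.51) rows were called lower, beside 6.02% of all 3′ UTR rows lower and 17.5% higher. The SRP21 row had only 8, 15 and 5 reads in Upf1-TAP and 5, 7 and 10 in Control, so its value is not read as a test. The SRP54 3′ UTR row was listed at 0 reads in all 18 libraries beside 19411 ORF reads, which allows up to 0.0155 reads per 100 ORF reads. That limit covers counting error only, since the width of the row and the way reads were assigned to it are not given. The 5′ UTR row of SRP14 was at 0 throughout as well.

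The partners of SRP in ER targeting were read from lists of the other genes of the pathway, given by counts and medians. In the order Upf1-TAP, Pab1-TAP, Rpl16a-TAP, Lsm1-TAP and Control, the median of all rows against Input was 0.27, 0.23, 0.03, 0.13 and 0.04, with 15.9%, 7.89%, 4.0%, 9.77% and 6.96% of all rows called lower and 22.2%, 9.89%, 5.62%, 13.1% and 9.21% higher. Against Control it was 0.07, 0.19, -0.03 and 0.02 in the 4 tagged groups, with 13.9%, 8.08%, 0.246% and 0.0% called lower and 19.8%, 8.24%, 0.0556% and 0.0% higher. Of 12 genes for the SRP receptor and translocon, 3 were called lower than Input in Upf1-TAP and 0 higher (median -0.91), 2 lower in Pab1-TAP (0.26), 2 lower in Rpl16a-TAP (-0.04), 1 lower in Lsm1-TAP (-0.46) and 1 lower in Control (-0.36). Against Control, 4 were called lower in Upf1-TAP (-0.66), 2 higher and 2 lower in Pab1-TAP (0.34), and 0 in Rpl16a-TAP and Lsm1-TAP. YDR292C, the gene of the receptor subunit that docks SRP, was called lower in Upf1-TAP than Input at -0.89 (SE 0.32) and than Control at -1.21 (SE 0.32), and in Pab1-TAP than Control at -0.998 (SE 0.32). YKL154W, that of its membrane-anchored partner, was called lower in Upf1-TAP than Control at -1.03 (SE 0.38). SEC63 and SEC66, of the post-translational translocon, were the other 2 lower there, at -1.69 and -1.54. KAR2, the ER chaperone that pulls chains through the pore, was called lower than Input in Pab1-TAP at -1.59 (SE 0.35), Rpl16a-TAP at -1.51 (SE 0.35) and Upf1-TAP at -1.07 (SE 0.35). SBH2, a small subunit of the Ssh1 translocon, was called lower than Input in Upf1-TAP at -2.16 (SE 0.59) and Lsm1-TAP at -1.996 (SE 0.58) and higher than Control in Pab1-TAP at 2.22 (SE 0.59). SBH1, its Sec61 counterpart, was called lower in Control than Input at -2.24 (SE 0.71) and higher in Pab1-TAP than Control at 2.51 (SE 0.71). SSH1, the pore protein of that translocon, was called lower than Input in Rpl16a-TAP (-1.40) and Pab1-TAP (-1.34), and SEC61, the main pore, was called in none of the 9 comparisons.

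The signal peptidase has 4 genes. SPC2, a non-catalytic subunit, rose against Input in Pab1-TAP by 1.89 (SE 0.31) and in Upf1-TAP by 1.78 (SE 0.31), and against Control by 1.27 and 1.17. SEC11, the catalytic subunit, was called lower than Input in Upf1-TAP at -2.77 (SE 0.36), and SPC3, an essential subunit, at -2.23 (SE 0.34). SPC1 was called lower than Input in Lsm1-TAP (-1.73) and Control (-1.56). The signal peptidase counts against Input were 1 higher and 2 lower in Upf1-TAP, 1 higher in Pab1-TAP, 2 lower in Rpl16a-TAP and 3 lower in both Lsm1-TAP and Control (medians -1.43, -0.51, -1.15, -1.54 and -1.40 in this order), beside 15.9%, 7.89%, 4.0%, 9.77% and 6.96% of all rows lower and 22.2% and 9.89% higher in the first 2. Against Control they were 1 higher and 2 lower in Upf1-TAP, 2 higher in Pab1-TAP (SPC2 and SPC3) and 0 in the rest, beside 19.8% of all rows higher and 13.9% lower in Upf1-TAP and 8.24% higher in Pab1-TAP.

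The 9 genes of SRP-independent targeting (GET and SND) were called lower than Input in 6 cases in Upf1-TAP (median -1.42), 4 in Lsm1-TAP with 1 higher (-0.85), 3 in Pab1-TAP (-0.66), 3 in Control (-0.96) and 1 in Rpl16a-TAP (-0.05). Of all rows 15.9%, 9.77%, 7.89%, 6.96% and 4.0% were called lower in these 5 comparisons. GET3, the ATPase that carries tail-anchored proteins, had -2.92 (SE 0.43) in Upf1-TAP against Input, SND3 -2.44 (SE 0.31) and GET4 -1.69 (SE 0.49). SGT2, the chaperone that hands such proteins on, had -1.92 (SE 0.51) in Lsm1-TAP. The 1 higher in Lsm1-TAP was SND1, at 1.72 (SE 0.47). Against Control, 3 were called lower in Upf1-TAP (GET1, GET3 and SND3), beside 13.9% of all rows, and 0 in the other 3 purifications. In the nascent polypeptide-associated complex, which binds chains at the same ribosomal exit, EGD1 had -3.19 (SE 0.42) and EGD2 -2.97 (SE 0.65) in Upf1-TAP against Input while BTT1, the minor beta subunit, had 1.82 (SE 0.44), all called. Against Control, Upf1-TAP had BTT1 higher (2.27) and EGD1 lower (-1.43). In Lsm1-TAP 2 of these 3 were called lower and in Control 1, and in Pab1-TAP and Rpl16a-TAP 0.

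Precursors that depend on SRP were compared with precursors that do not. Of DAP2, PHO8 and OCH1, membrane proteins that need SRP in yeast, 2 were called lower than Input in Upf1-TAP (DAP2 and PHO8, median -1.06), DAP2 alone in Pab1-TAP (-0.90) and again in Rpl16a-TAP (-0.63), with 0 for both Lsm1-TAP (-0.38) and Control (0.07). Of PRC1, GAS1 and PDI1, which enter the ER without it, the counts were 3 (-2.14), 2 (PRC1 and GAS1, -1.38), 0 (-0.85), 1 (PRC1, -1.60) and 1 (PRC1, -1.15) in the same order. None was called higher. The shares of all rows called lower were 15.9%, 7.89%, 4.0%, 9.77% and 6.96% in this order. DAP2 had -0.99 (SE 0.27) and PRC1 -3.06 (SE 0.35) in Upf1-TAP against Input. Against Control, 2 of the first 3 (DAP2 and OCH1) and 2 of the second 3 (GAS1 and PRC1) were called lower in Upf1-TAP, beside 13.9% of all rows, DAP2 in Pab1-TAP, beside 8.08%, and 0 elsewhere. The difference between the lists was not tested. Library totals move the median of all rows as given above, and the list values were not read on that scale.

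The rows most like the mean log2 CPM of the 6 SRP ORFs over the 18 libraries were the ORFs of LOG1 (YJL055W, r = 0.98), CRP1 (YHR146W, r = 0.98), RPN11 (YFR004W, r = 0.98), TIF35 (YDR429C, r = 0.97) and RFC3 (YNL290W, r = 0.96), of 4814 rows with a mean of at least 20 CPM. RPN11 is a proteasome lid subunit, TIF35 a subunit of initiation factor eIF3 and RFC3 a clamp loader subunit. No SCR1 neighbour is among them.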

How the data were processed

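RNA from 5 kinds of affinity purification and from total extract of yeast was sequenced in 18 libraries. The authors deposited raw read counts per row, whole numbers with no scaling. Per the submitters' processing notes and the paper's methods, they trimmed reads with cutadapt 1.16, aligned them with STAR 2.7 to the S288C genome and obtained counts by featureCounts (Subread 1.6.2). The libraries came from a stranded kit, but whether strand was used in counting, and how reads with several positions were treated, are not given in the sources used here. For UTR rows, coordinates were not used here.

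Members and lists were chosen with earlier results of these data known. Rows were kept that had 10 reads or more in 3 libraries or more. A single quasi-likelihood fit in edgeR 4.0.16, run under R 4.3.3 after TMM scaling, took in all 18 libraries and left 12 residual degrees of freedom. Each of 15 comparisons was adjusted by Benjamini-Hochberg over 12582 rows at 0.05. Tests of the SCR1 ratio were exact permutations of libraries (scipy 1.17.1). TMM factors ran from 0.249 to 2.21. The procedure was also run on simulated counts. These were drawn independently for each library, without the replicate 3 or rRNA pattern, so that run does not cover those features of the data. Alternatives were DESeq2 1.42.0, library totals, rRNA left out, other filters, fits of only the groups compared, the replicate number as a block, and each library or replicate number left out. Shares of all rows called are those of the main fit. Except where stated, SRP mRNA counts under the alternatives stand without such a share, so they compare settings only.

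The sources used here speak of replicated experiments without saying that the cultures were separate, so p-values measure the spread between these libraries, which may be technical. Same-numbered tagged and Input libraries deviated together from their group means, with correlations of 0.113 to 0.425. Every tagged library but Rpl16a-TAP replicate 2 was closest to the Input library of its own number. Control replicates 1 and 3 were as well (0.337 and 0.221), and Control replicate 2 was not (-0.161). The main fit does not use this pairing, and the fit with the replicate number as a block is given beside it. In no group were 2 libraries alike within counting error. Coordinates and sequences are from the RefSeq R64 assembly. SCR1 and all SRP rows are named, with up to 4 members of each list by mean CPM, any member called in at least 4 of the 9 comparisons with Input or Control, and the 5 rows most correlated with SCR1 or with the mean of the SRP ORFs. Outside this rule YDR292C, YKL154W, SEC63, SEC66, SBH1, GET1 and SND1 are named, each for a call, and so are the structural RNAs at 0 reads. The named members therefore do not stand for their lists. Lists cover SRP receptor and translocon, signal peptidase, GET and SND targeting, nascent polypeptide-associated complex, precursors with or without SRP need, and other structural RNAs. Protein sequences were not used here. Figures were drawn with matplotlib 3.10.9, and tables made with Python 3.11.15, numpy 2.4.6 and pandas 2.3.3.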

Additional observations from a re-analysis of the deposited data

Results flagged for a closer look

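The 5′ UTR row of SRP68 lies outside the tests because it had at least 10 reads in 2 libraries only. It held 55 reads in Upf1-TAP (32, 17 and 6 in the 3 replicates) against 1 read in Control, and its share of the library was above that of every Control library in all 3, at 0.767 to 3.41 CPM of the unscaled library against at most 0.243 CPM. Pab1-TAP held 10 reads, Lsm1-TAP 7, Input 2 and Rpl16a-TAP 1. How many other 5′ UTR rows lie above Control in this way was not counted, so the reads are not taken as particular to SRP68. The ORF row of SRP68 was called lower in Upf1-TAP than in Control under TMM, but not under library totals, the scale of the shares given here.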

How the results depend on the processing

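Under library totals, SCR1 was -3.72 in Rpl16a-TAP against Input (called), 1.29 in Upf1-TAP against Rpl16a-TAP (not called), -0.72 in Rpl16a-TAP against Lsm1-TAP (not called), and the sign turned for SRP14 (0.39 in Upf1-TAP against Control, -0.067 in Rpl16a-TAP against Control), SRP21 (1.08 in Upf1-TAP against Input, 0.27 in Lsm1-TAP against Control), SRP54 (1.09 in Upf1-TAP against Input, 0.63 in Pab1-TAP against Input, 1.04 in Lsm1-TAP against Input, 1.23 in Control against Input, -0.27 in Rpl16a-TAP against Control), SRP68 (1.43 in Upf1-TAP against Input, 1.504 in Pab1-TAP against Input, 1.54 in Lsm1-TAP against Input, -0.26 in Rpl16a-TAP against Control), SRP72 (0.89 in Upf1-TAP against Input, 1.19 in Pab1-TAP against Input, -0.63 in Rpl16a-TAP against Control), SEC65 (0.81 in Upf1-TAP against Input, 1.31 in Pab1-TAP against Input, 1.03 in Lsm1-TAP against Input, 1.18 in Control against Input, 0.12 in Pab1-TAP against Control), and the SRP mRNAs called were 5 in Pab1-TAP against Input, 4 in Lsm1-TAP against Input, 4 in Control against Input, 0 in Upf1-TAP against Control, 1 in Pab1-TAP against Control. Scaled by the reads in ORF and exon rows, an alternative chosen after seeing the data, SCR1 was 0.35 in Upf1-TAP against Rpl16a-TAP (not called), and the sign turned for SRP14 (0.29 in Upf1-TAP against Control), SRP21 (0.64 in Upf1-TAP against Input, 0.16 in Lsm1-TAP against Control), SRP54 (0.68 in Upf1-TAP against Input, 0.13 in Pab1-TAP against Input, 0.55 in Lsm1-TAP against Input, 0.88 in Control against Input), SRP68 (1.00 in Upf1-TAP against Input, 0.99 in Pab1-TAP against Input, 1.12 in Lsm1-TAP against Input, -0.20 in Rpl16a-TAP against Control), SRP72 (0.33 in Upf1-TAP against Input, 0.55 in Pab1-TAP against Input, -0.47 in Rpl16a-TAP against Control), SEC65 (0.43 in Upf1-TAP against Input, 0.86 in Pab1-TAP against Input, 0.69 in Lsm1-TAP against Input, 0.97 in Control against Input), and the SRP mRNAs called were 2 in Upf1-TAP against Input, 4 in Lsm1-TAP against Input, 4 in Control against Input, 0 in Upf1-TAP against Control. Under both scalings every SRP mRNA called against Input was higher and 0 were lower. For Upf1-TAP against Input that was 3 higher under totals and 2 higher by ORF and exon reads, where TMM had 4 lower. In Pab1-TAP against Control it was 1 higher under totals and 2 higher by ORF and exon reads, where TMM had 2 lower. The shift of all rows is built into these scalings. Leaving out rRNA rows before TMM changed no call.

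With DESeq2, SCR1 was -3.51 in Rpl16a-TAP against Input (called), -3.23 in Control against Input (called), and the SRP mRNAs called were 1 in Control against Input, 4 in Pab1-TAP against Control, 1 in Lsm1-TAP against Control. With no filter, the sign turned for SRP54 (0.020 in Control against Input), SEC65 (0.024 in Control against Input), and the SRP mRNAs called were 2 in Upf1-TAP against Input, 1 in Rpl16a-TAP against Input, 1 in Pab1-TAP against Control. With at least 10 reads in every library, the sign turned for SRP14 (0.082 in Upf1-TAP against Control), SRP21 (0.085 in Lsm1-TAP against Control), SRP68 (0.096 in Pab1-TAP against Input, 0.11 in Lsm1-TAP against Input), SRP72 (-0.054 in Rpl16a-TAP against Control), and the SRP mRNAs called were 0 in Upf1-TAP against Input, 1 in Control against Input. With only the 2 groups compared in the fit, SCR1 was -5.49 in Pab1-TAP against Input (not called), -3.15 in Control against Input (called), and the sign turned for SEC65 (0.0032 in Control against Input), and the SRP mRNAs called were 2 in Upf1-TAP against Input, 0 in Rpl16a-TAP against Input, 0 in Pab1-TAP against Control. A model formula taken from the study's methods moved none of 5 SCR1 results, and UTR rows added to the ORF rows moved no ratio past its spread. For the settings in this paragraph the cause was not tested.

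With the replicate block, SCR1 was -4.46 in Rpl16a-TAP against Input (called), -2.98 in Control against Input (called), -2.67 in Upf1-TAP against Control (called), -3.52 in Pab1-TAP against Control (called), -1.44 in Upf1-TAP against Lsm1-TAP (not called), -2.17 in Pab1-TAP against Rpl16a-TAP (called), -2.24 in Pab1-TAP against Lsm1-TAP (called), -0.071 in Rpl16a-TAP against Lsm1-TAP (not called), and the sign turned for SRP14 (-0.11 in Upf1-TAP against Input), and the SRP mRNAs called were 5 in Rpl16a-TAP against Input, 1 in Control against Input, 5 in Pab1-TAP against Control, 1 in Rpl16a-TAP against Control. The 5 called in Pab1-TAP against Control were SRP14 and SRP21 higher and SRP54, SRP68 and SRP72 lower. By number the tagged libraries go with Input, Rpl16a-TAP replicate 2 excepted. Control goes with Input in replicates 1 and 3 only, so its block values rest in part on shared numbers alone.

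Leaving out 1 library, or 1 replicate number in every group, SCR1 ranged over -7.40 to -3.85 in Upf1-TAP against Input, -7.74 to -5.03 in Pab1-TAP against Input, -5.43 to -3.04 in Rpl16a-TAP against Input, -4.93 to -4.26 in Lsm1-TAP against Input, -3.41 to -2.77 in Control against Input, -4.24 to -0.70 in Upf1-TAP against Control, -4.58 to -1.88 in Pab1-TAP against Control, -2.27 to 0.12 in Rpl16a-TAP against Control, -1.88 to 3.33 in Upf1-TAP against Pab1-TAP, -3.90 to 1.02 in Upf1-TAP against Rpl16a-TAP, -2.72 to 0.90 in Upf1-TAP against Lsm1-TAP, -4.24 to -0.087 in Pab1-TAP against Rpl16a-TAP, -3.12 to -0.32 in Pab1-TAP against Lsm1-TAP, -0.77 to 1.70 in Rpl16a-TAP against Lsm1-TAP. SRP mRNAs called ranged over 0 to 4 in Upf1-TAP against Input, 0 to 2 in Pab1-TAP against Input, 0 to 3 in Rpl16a-TAP against Input, 0 to 1 in Control against Input, 0 to 5 in Upf1-TAP against Control, 0 to 3 in Pab1-TAP against Control. SRP14 ranged over -0.46 to 0.41 in Upf1-TAP against Input, -0.27 to 0.41 in Lsm1-TAP against Control. SRP21 ranged over -0.27 to 0.21 in Lsm1-TAP against Control. SRP54 ranged over -0.28 to 0.24 in Control against Input. SRP68 ranged over -0.22 to 0.030 in Lsm1-TAP against Input. SRP72 ranged over -0.16 to 0.53 in Lsm1-TAP against Input, -0.13 to 0.29 in Rpl16a-TAP against Control. SEC65 ranged over -0.27 to 0.26 in Control against Input.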
